A study of Rattus norvegicus with 24 samples.

Results

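The lungs of rats that inhaled hexanal vapour at 1500 ppm, the highest of the series' concentrations, were compared with the lungs of rats that breathed filtered clean air. Hexanal is a short-chain aldehyde released by heated fats, cooking and building materials, and it irritates the airways. The members were taken from the labels alone: every array labelled as the 1500 ppm group and every array labelled as the clean air control, which made 12 of the 24 arrays of the series. Each array carried RNA of the whole lung of 1 Fischer-344 rat. The labels give the age as 7 to 8 weeks, and by the authors' methods the rats were 7 weeks old when bought, before exposure. The high-dose group held 3 males and 3 females, as did the control group. The rats inhaled for 4 h a day on 5 days a week, over 5 weeks by the labels and a shorter time by the authors' methods. All control rats went through the same schedule without hexanal.

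Levels are given on the log2 scale relative to the 75th percentile of the same array, so that a negative level lies below that percentile, and a difference is the high-dose mean minus the control mean. Of 21259 features detected above background on 5 or more of the 6 arrays of some group, a feature was called when it changed at least 1.5-fold with an unadjusted limma p under 0.05. By that rule 149 features rose, 0.701% of those tested, and 111 fell, 0.522%. Since 6.96% of all features had a p under 0.05, a large share of such calls can be chance, and after Benjamini-Hochberg adjustment limma left 1 feature (0.0047%), the tubulin gene Tubb4b. "Rose" and "fell" below refer to the unadjusted rule. The median difference over all features was 0.01, with 11430 differences positive and 9829 negative. At an unadjusted limma p under 0.05 alone, 831 features were higher and 649 lower. The 75th percentile signal ran from 2316 to 3068 units in control arrays and from 1701 to 2948 in high-dose arrays, and the number of arrays limited the precision.

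No slide held both a control and a high-dose array. Control males, control females, high-dose males and high-dose females each lay on a slide of their own, so within these 12 arrays the dose, and likewise the sex, cannot be told apart from the slide. Fitting slide as a fixed block compares the groups only through arrays of the other doses that shared the slides, and its values are given beside the calls of named genes that it ended. Markers of the labelled tissue, such as Sftpc and Scgb1a1 of the distal and conducting epithelium, were well above background on all 12 arrays. The lung held RNA of many cell types, and in such bulk tissue fewer cells of a type and less RNA per cell cannot be told apart.

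Several of the gene groups that changed are fast regulators of transcription. The circadian clock is a loop in which BMAL1 with CLOCK or NPAS2 binds E-box elements and drives the Per, Cry, Nr1d, Dbp and Tef genes, PER and CRY proteins shut this drive off, and NR1D1 and NR1D2 repress Bmal1, Npas2 and Nfil3. Lung cells carry this clock, and the levels of its genes depend on the hour at which tissue is taken. Immediate early genes are transcribed within minutes of growth factor, stress or handling signals through SRF and CREB, without new protein synthesis. Glucocorticoids released from the adrenal gland act on a further set of genes in the lung, and their secretion follows both stress and the time of day.

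Of 15 clock genes that passed the filter, 6 rose and 3 fell, against the 0.701% and 0.522% of all features. The output genes Dbp and Tef and the repressors Per2, Nr1d1, Nr1d2 and Ciart rose, and the activators Bmal1 and Npas2 and the repressor Nfil3 fell. Clock, Per1, Per3, Cry1, Cry2 and Bhlhe40 were not called. Promoter windows of 4 of the called genes are shown with the clock elements that they hold in capitals, since these elements are the ones through which the loop is known to run. The windows span 250 bases before to 50 after the start of transcription, come from RefSeq on GRCr8, and are written 5′ to 3′ on the strand of the gene. Ciart (chr2:186112197-186112496, minus strand) and Nr1d1 (chr10:84229405-84229704, minus strand) hold the E-box CACGTG, Per2 (chr9:99496944-99497243, minus strand) holds the D-box TTATGTAA, and Bmal1 (chr1:176766078-176766377, plus strand) holds the ROR and REV-ERB core AGGTCA.
Ciart: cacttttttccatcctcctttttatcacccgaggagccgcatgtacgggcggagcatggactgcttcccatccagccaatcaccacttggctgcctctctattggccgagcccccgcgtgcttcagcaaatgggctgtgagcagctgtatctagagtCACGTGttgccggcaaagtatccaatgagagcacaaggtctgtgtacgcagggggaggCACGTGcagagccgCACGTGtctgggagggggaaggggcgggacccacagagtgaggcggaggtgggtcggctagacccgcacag
Nr1d1: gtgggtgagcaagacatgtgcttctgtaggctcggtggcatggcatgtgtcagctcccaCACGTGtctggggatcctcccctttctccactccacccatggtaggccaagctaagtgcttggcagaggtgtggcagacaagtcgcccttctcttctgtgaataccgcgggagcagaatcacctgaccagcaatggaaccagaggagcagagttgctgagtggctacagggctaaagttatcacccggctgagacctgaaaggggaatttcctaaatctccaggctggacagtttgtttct
Per2: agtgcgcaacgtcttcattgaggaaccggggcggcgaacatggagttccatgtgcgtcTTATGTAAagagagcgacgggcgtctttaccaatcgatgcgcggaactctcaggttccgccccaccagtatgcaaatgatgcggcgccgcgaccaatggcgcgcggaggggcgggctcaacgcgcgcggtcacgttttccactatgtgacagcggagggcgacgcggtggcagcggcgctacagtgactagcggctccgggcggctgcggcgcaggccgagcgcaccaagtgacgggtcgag
Bmal1: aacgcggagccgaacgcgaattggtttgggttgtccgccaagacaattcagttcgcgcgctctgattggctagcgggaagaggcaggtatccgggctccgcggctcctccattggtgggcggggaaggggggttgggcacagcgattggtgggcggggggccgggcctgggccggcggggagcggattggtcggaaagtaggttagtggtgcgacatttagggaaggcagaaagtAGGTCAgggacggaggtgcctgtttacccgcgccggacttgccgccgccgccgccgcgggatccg
On either strand, 3 of the 6 genes that rose had an exact E-box in a window, namely Ciart, Nr1d1 and Tef, and 6.42% of all 33469 windows held one. Nr1d1 has 2 windows in the table, and the one not shown (chr10:84231763-84232062) held none. The D-box letters stood in 0.893% of all windows and the short AGGTCA core in 16.2%. That core was also in the window of Nr1d2, 1 of the 6 genes that rose, and among the 3 that fell only Bmal1 held it. None of the 3 genes that fell had an E-box in its window, which says only that these letters are not in that stretch.

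Dbp, an output transcription factor of the clock that binds D-box elements, had control levels of -0.51 to 2.39 (median 0.66) and high-dose levels of 2.17 to 3.56 (median 3.09). Its difference was 2.06 ± 0.61 (SE, n = 6 and 6; limma adjusted p = 0.441), and the highest control rat lay above the lowest high-dose rat. Per2, a repressor of the loop, ran from -2.86 to -1.58 in controls and from -1.58 to -0.46 at the high dose, a difference of 1.09 ± 0.33. The other genes that rose were Ciart, which represses BMAL1 activity, by 1.28, Nr1d1 by 1.53, its relative Nr1d2 by 0.96 and the D-box factor Tef by 0.87. Ciart was dim, well above background on 3 control arrays and 5 high-dose arrays.

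Bmal1, the core activator, had control levels of -0.14 to 0.59 and high-dose levels of -1.07 to -0.22, so that every high-dose rat lay below every control rat. It fell by 1.04 with an SE of 0.24 (exact permutation p = 0.00216, the smallest that 6 against 6 arrays allow), and its other probe gave -1.14. Npas2, the partner that can stand in for CLOCK, also separated without overlap and fell by 0.94, although a dimmer probe of the gene gave 0.18. Nfil3, a repressor that competes at D-box elements, fell by 0.79. The 6 uncalled clock genes lay between -0.15 for Clock and 0.33 for Per3, with Per1 at -0.12, Cry1 at 0.11, Bhlhe40 at 0.23 and Cry2 at 0.24.

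**Figure D1:**
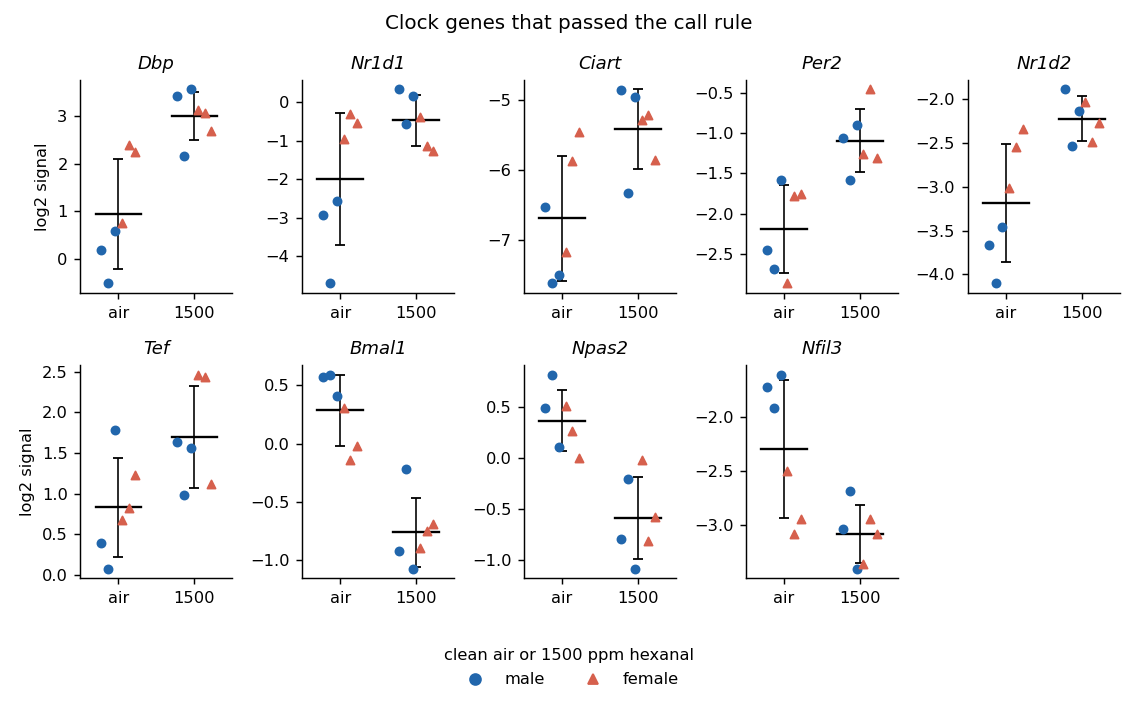
Log2 signal of clock genes in each of the 12 rats (vertical axis, relative to the array's 75th percentile), for the 9 called genes, with a horizontal line at the group mean and whiskers of 1 SD. The 6 high-dose rats lay below all control rats for Bmal1 and Npas2, and the 3 control males had the lowest Nr1d1 levels.

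The control males stood apart from the control females in several of these genes. For Nr1d1 the control males ran from -4.71 to -2.57 and the control females from -0.94 to -0.29, while the high-dose males ran from -0.55 to 0.34. The difference from control was therefore 3.39 in males and -0.33 in females, and limma found that it differed between the sexes (adjusted p = 0.00448). For Dbp the control males had -0.51 to 0.58 and the control females 0.75 to 2.39, with differences of 2.97 in males and 1.15 in females that did not pass this test. Bmal1 fell by 1.26 in males and by 0.83 in females. All 9 calls held when any single rat was left out. With slide as a fixed block none of the 9 genes was called, and Dbp came to -0.17, Per2 to -0.51, Ciart to -0.22, Bmal1 to -0.27, Npas2 to -0.18, Nfil3 to -0.10, Tef to 0.70, Nr1d1 to 1.27 and Nr1d2 to 0.76. Ciart was also lost with normexp background correction, at 0.20, and Npas2 when all probes of a gene were averaged, at -0.38. The hour of tissue collection was not given in the sources used here, and its part in these differences was not tested.

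Of 28 immediate early genes that passed the filter, 11 fell and 0 rose, against the 0.522% and 0.701% of all features. In all 23 had a negative difference, and the median over the list was -0.48. Per rat, the mean of the list, centred gene by gene, ran from -0.46 to 0.64 in controls and from -0.79 to -0.17 at the high dose, so that the groups overlapped. The windows of Dusp1 (chr10:17184603-17184902, plus strand) and Btg2 (chr13:48087641-48087940, minus strand) are shown because they hold the full CREB element TGACGTCA, in capitals, through which cyclic AMP and stress signals are known to act.
Dusp1: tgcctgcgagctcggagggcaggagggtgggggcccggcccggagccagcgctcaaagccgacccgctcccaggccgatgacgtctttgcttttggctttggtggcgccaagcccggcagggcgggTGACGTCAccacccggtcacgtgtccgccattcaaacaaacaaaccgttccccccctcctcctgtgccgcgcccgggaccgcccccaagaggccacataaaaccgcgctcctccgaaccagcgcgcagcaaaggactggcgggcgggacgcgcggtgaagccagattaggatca
Btg2: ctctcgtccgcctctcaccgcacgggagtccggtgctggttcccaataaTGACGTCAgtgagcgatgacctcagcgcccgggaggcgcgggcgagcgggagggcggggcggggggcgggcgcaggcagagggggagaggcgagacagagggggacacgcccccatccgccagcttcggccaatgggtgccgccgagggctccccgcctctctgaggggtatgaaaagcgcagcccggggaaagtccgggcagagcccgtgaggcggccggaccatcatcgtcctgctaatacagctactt
Of the 11 genes that fell, 6 had a window in the RefSeq GRCr8 table, 2 of these held the CREB element on either strand, and 1.83% of all windows held it. The Zfp36 window held the serum response CArG box, which stood in 1.64% of all windows.

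Dusp1, a phosphatase that switches off MAP kinases, had control levels of -0.39 to 0.86 (median -0.09) and high-dose levels of -2.06 to -0.45 (median -1.16), with no overlap. It fell by 1.32 with an SE of 0.30, in males by 1.44 and in females by 1.20. Klf4, a zinc finger factor of epithelium and endothelium, likewise separated, from 2.32 to 3.23 in controls against 1.62 to 2.22, and fell by 0.71. Klf2, a flow-responsive endothelial factor, fell by 1.04, and Jun, a subunit of AP-1, fell by 0.88.

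Fos, the other AP-1 subunit, had the largest difference of the list at -2.42 ± 0.68, but its controls spread from -2.31 to 1.66 and overlapped the high-dose range of -3.91 to -0.80. Nr4a1, a nuclear receptor, was 2.14-fold lower. Zfp36, which destabilises cytokine mRNAs, fell by 0.98, and Junb by 0.71. The remaining calls were Btg2 at -0.75, Arc at -0.75 and Csrnp1 at -0.62, whose second probe gave -0.19. Egr1 had a difference of -1.23 that was not called, with controls from -1.94 to 2.33 and high-dose rats from -2.49 to 1.23, and Atf3 had 0.56.

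Single rats weighed on this group. Control rat 23 had the highest list mean, and without it 7 genes were lower, with Btg2 at -0.58, Junb at -0.53, Csrnp1 at -0.54 and Arc at -0.44 no longer called. Csrnp1 was also lost without control rat 1 (-0.52) or high-dose rat 16 (-0.57), and Arc was called in 5 of the 12 fits that left out 1 rat. Without control rat 3 the count was 13. In females alone 11 genes were lower and in males alone 5. With slide as a fixed block 12 were lower, with Zfp36 at -2.11 and Klf4 at -1.21.

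**Figure D2:**
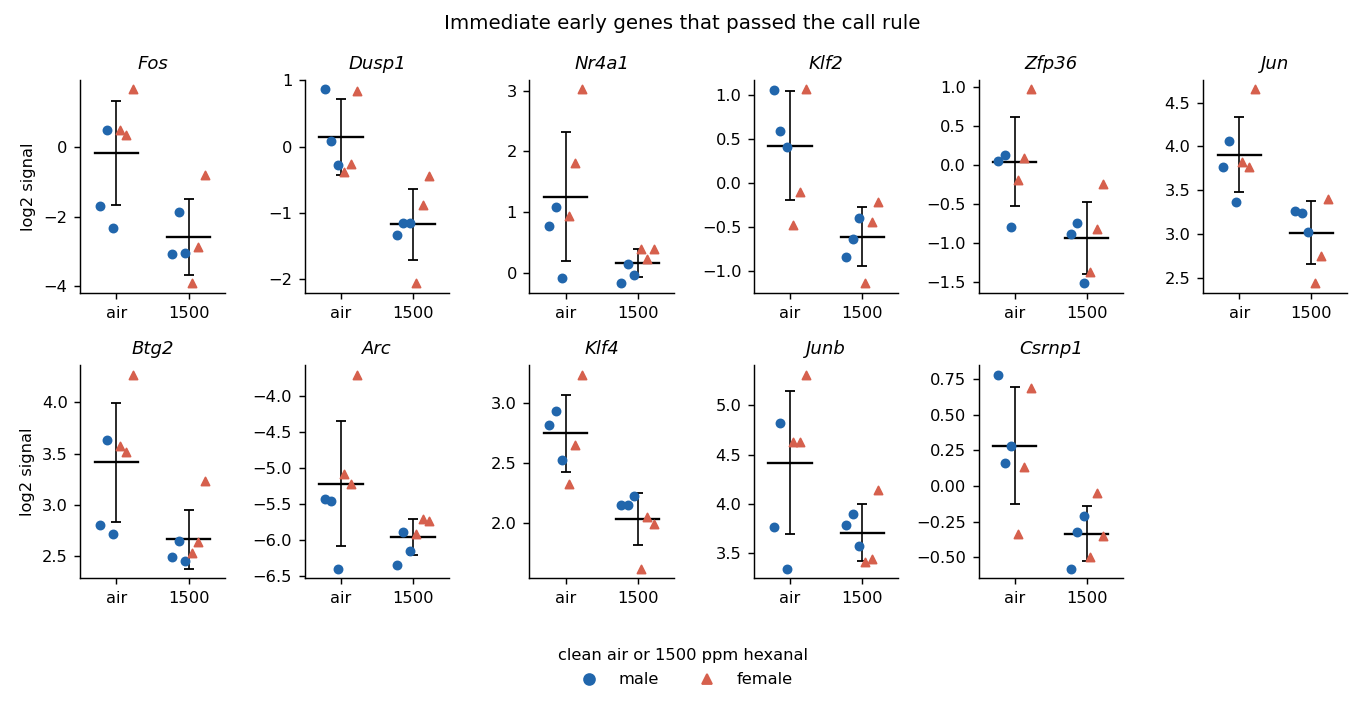
Log2 signal of immediate early genes in each of the 12 rats (vertical axis, relative to the array's 75th percentile), for the 11 called genes, with a horizontal line at the group mean and whiskers of 1 SD. Dusp1 and Klf4 separated without overlap, whereas the control levels of Fos spread from -2.31 to 1.66.

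Of 18 genes known to respond to glucocorticoids, 3 fell and 0 rose, against the 0.522% and 0.701% of all features, and the list's median difference was -0.23. Ddit4, an inhibitor of mTORC1 that is induced by glucocorticoids and by low oxygen, ran from 0.25 to 3.60 in controls (median 2.06) and from 0.09 to 1.46 at the high dose (median 0.33). It fell by 1.43 with an SE of 0.43, and its second probe gave -1.45. Cebpd, a transcription factor of the acute phase response, fell by 1.01, and Errfi1, a feedback inhibitor of the EGF receptor, fell by 0.78. Under the fixed slide block Errfi1 came to -0.66 and was not called, which left 2 calls in the list.

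For Cebpd and Errfi1 every control male lay above every control female and every high-dose rat, and for Ddit4 this held for 2 of the 3 control males, the third being at 2.05 against 2.07 in control female 23. Ddit4 had -2.56 in males and -0.30 in females, Cebpd -1.78 and -0.24, and Errfi1 -1.26 and -0.30. For Cebpd the difference between the sexes passed limma's interaction test (adjusted p = 0.0195), for Ddit4 (adjusted p = 0.0584) and Errfi1 (adjusted p = 0.055) it did not. Pdk4, which turns glucose oxidation down and was not called over both sexes at -0.55, had -1.25 in males and 0.14 in females (limma adjusted p = 0.00462). In females alone none of the 18 was called, and in males alone 5 were.

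Tubb4b, a beta-tubulin abundant in cilia and a subunit of microtubules, was the single feature past the adjusted threshold. It had control levels of 5.19 to 5.70 (median 5.39) and high-dose levels of 6.28 to 6.54 (median 6.38). The gap between the groups was wider than the range within either, and the gene rose by 0.94 ± 0.10, 1.92-fold (limma adjusted p = 4.41e-05). The rise was 1.09 in males and 0.79 in females. Tubb4b was called in every setting tried and in all 12 fits that left out 1 rat, and stood at 1.20 with slide as a fixed block, where its limma adjusted p was 0.679.

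Of the 16 tubulin genes that passed the filter, Tubb4b was the only one called, 12 had a positive difference, 4 had a negative one and 6 had an unadjusted limma p under 0.05. Tubb5 ran from 2.91 to 3.01 in controls and from 3.11 to 3.47 at the high dose, a separation without overlap at a difference of 0.38, below the 1.5-fold threshold. Tuba1a had 0.40, Tuba1b 0.27 and Tuba8 0.63, none of them called. The mean over the list, Tubb4b included, ran from -0.07 to 0.06 in control rats and from 0.07 to 0.28 in high-dose rats. The groups were parted only narrowly, at 0.065 in control rat 21 and 0.072 in high-dose rat 38. Since Tubb4b is part of this mean, the separation says nothing separate about the other tubulin genes. The motile cilium genes had 0 calls among 45 and 0 at an unadjusted limma p under 0.05, with 42 positive differences, a median of 0.18, and medians of -0.12 in males and 0.52 in females. Among high-dose females their mean was 0.80 in rat 36, 0.53 in rat 37 and 0.12 in rat 38, while control female 22 had 0.60.

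Across all features, 66 (0.31%) had every high-dose rat above every control rat and 36 (0.169%) had every one below, each at the smallest exact permutation p of 0.00216, whose Benjamini-Hochberg value over all features was 0.451. Among called features 13 that rose and 7 that fell separated in this way, 15 of them with a gene symbol. Ccl12, a monocyte chemoattractant of rodents, had control levels of -5.86 to -3.41 and high-dose levels of -3.36 to -2.56, and rose by 1.56 ± 0.31 (limma adjusted p = 0.123). The related chemokine gene Ccl2 was not called at 0.60. Slc9b2, a sodium and proton exchanger, rose by 1.43 on its brighter probe and had 0.61 on the other. Prim2, the large subunit of DNA primase, had 1.06, Sertad4 0.63, and Chia, the acidic chitinase of the airways and alveoli, 0.62.

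Cav3, the muscle caveolin, had 0.74 and Lrit1, a membrane protein of the retina, had 0.63. The call of Cav3 was lost without control rat 2 (0.57) or 23 (0.67), or high-dose rat 16 (0.75), 18 (0.71), 37 (0.63) or 38 (0.75), and that of Lrit1 without high-dose rat 16 (0.57) or 36 (0.40). Sertad4 was lost without high-dose rat 37 (0.57). Chia was no longer called without control rat 23 (0.54) or high-dose rat 36 (0.58). Prim2 was no longer called with slide as a fixed block, at 0.79, and Cav3 came to -0.44.

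The genes that fell without overlap were, besides Dusp1, Bmal1, Npas2 and Klf4, the genes Rgs1, Lhfpl2 and Cyp4b1. Rgs1, which damps chemokine receptor signals in lymphocytes and macrophages, had control levels of -1.31 to -0.41 and high-dose levels of -2.16 to -1.44. It fell by 0.97 with an SE of 0.20, by 0.97 in males and 0.98 in females. Lhfpl2 fell by 0.71. Cyp4b1, a lung monooxygenase of fatty acids and foreign compounds, fell by 0.62, from 1.96 to 2.85 in controls to 1.51 to 1.95 at the high dose, and dropped below 1.5-fold without control rat 1 (-0.52) or 3 (-0.57) or high-dose rat 38 (-0.58).

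**Figure D3:**
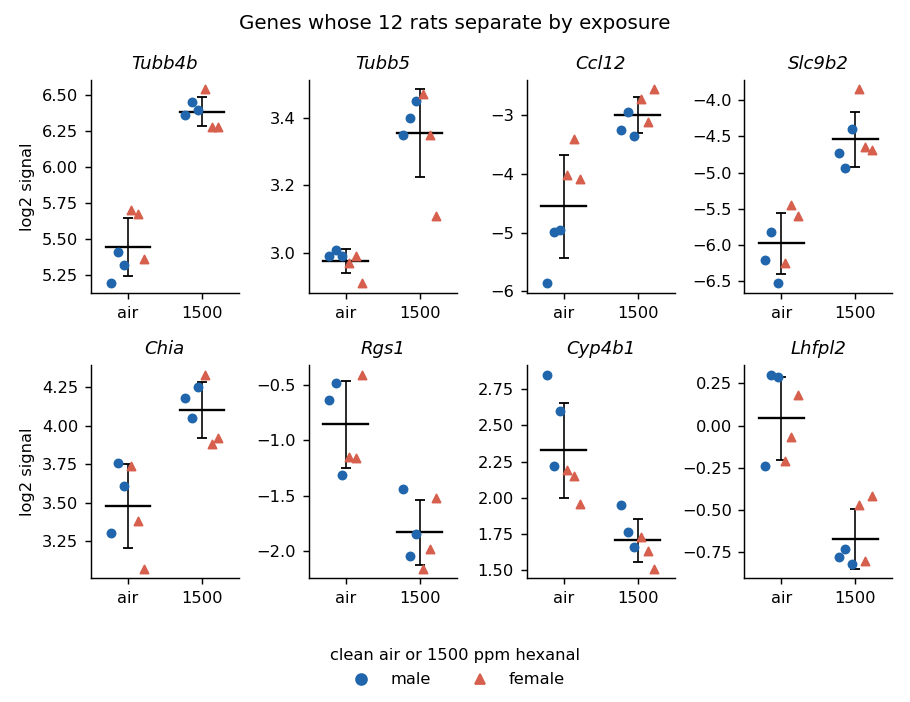
Log2 signal in each of the 12 rats (vertical axis, relative to the array's 75th percentile) of 8 genes whose groups did not overlap, with a horizontal line at the group mean and whiskers of 1 SD. Tubb4b ran from 5.19 to 5.70 in controls and from 6.28 to 6.54 at the high dose.

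Other genes rose further but with more spread. Steap1, a metalloreductase, ran from -6.57 to -5.41 in controls and from -5.49 to -3.06 at the high dose, and rose by 1.61 ± 0.34. Lipg, an endothelial lipase, rose by 1.15 and came to -0.28 with slide as a fixed block. C6, a component of the complement attack complex, rose by 1.71 from a control range of -2.51 to -0.20 to a high-dose range of -1.12 to 1.39. Cdon, a co-receptor of hedgehog, rose by 1.34, and fell short of the rule without high-dose rat 16 (0.84) or 18 (1.07). H19, an imprinted non-coding RNA, had 1.72, and its call was lost in 8 of the 12 fits that left out 1 rat.

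Settings other than leaving out rats also ended calls among these genes. With normexp background correction Steap1 came to 0.47, Slc9b2 to 0.42, Cdon to 0.38, Lipg to 0.56, H19 to 0.92, Sertad4 to 0.48, Cav3 to 0.63, Csrnp1 to -0.57, Arc to -0.49 and Lrit1 to 0.10, none called. With slide as a fixed block Slc9b2 came to 1.21, C6 to 2.58, Cdon to 0.43, H19 to 0.20, Sertad4 to 0.32, Lrit1 to 1.01, Lhfpl2 to -0.31 and Cyp4b1 to -0.03, none of them called. Averaging all probes of a gene left Lhfpl2 at -0.32 and Csrnp1 at -0.41. With array weights Klf4 came to -0.56, Nfil3 to -0.53, Cyp4b1 to -0.49, Sox17 to -0.53, Tnfaip2 to 0.50, Nfkbia to -0.43 and Clca2 to -0.39, and with slide as a random block Per2 came to 0.75, Tef to 0.83, Ciart to 0.96, Lipg to 0.85 and Cyp4b1 to -0.50, again without a call. Of the 57 called genes followed through the settings, Tubb4b, Ccl12, Rgs1, Dusp1 and Zfp36 kept their calls in each of the settings that did not leave out single rats.

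High-dose rats 36 and 37, both females, had high levels of markers of tissues other than the alveolar lung. Bpifa1, a secreted protein of the upper airways and large bronchi, had 5.32 and 6.10 in these rats, -3.52 to -1.79 in the other high-dose rats and -3.27 to -0.25 in controls. Heart markers varied in both groups. The cardiac muscle list means were 3.02 and 3.84 in these rats, -1.51 to 1.48 in the other high-dose rats and -1.57 to 2.07 in controls. Myh6, the atrial myosin heavy chain, had 4.77 and 5.41 in them, 3.46 and 2.62 in control rats 1 and 3, 2.60 in high-dose rat 17 and -8.30 to -0.06 in the others. Adipoq, the adipocyte hormone, had -1.08 and 0.23 in them and at most -5.43 in the others. Over the whole cardiac list, all 24 genes had a positive difference and none was called, with a median of 0.69 that was -0.98 in males and 2.76 in females.

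Itln1, a lectin of goblet cells and mesothelium, was called at 2.36 ± 1.13, with high-dose levels of 2.70 and 0.51 in rats 36 and 37 and -3.20 to -2.79 in the other 4. Without both rats, an alternative chosen after seeing the data, Itln1 came to 0.83 and was not called, and leaving out single rats kept its call in 6 of 12 fits. Retn, the fat and myeloid hormone resistin, was called at 1.95 and came to 0.98 without both and to 1.48, uncalled, without rat 37, while the third high-dose female, rat 38, was high as well at -1.49 against a control maximum of -4.72. The complement genes Cfi and Cfd, the latter adipsin, were called at 0.65 each, and without rats 36 and 37 both came to 0.23. Leaving out 1 rat kept the call of Cfi in 6 of 12 fits, with 0.40 without high-dose rat 36, and that of Cfd in 5, with 0.37 without rat 37. With slide as a fixed block Itln1 came to 0.59, Retn to -0.17, Cfi to 0.51 and Cfd to -0.18, none called, and with normexp Itln1 came to 1.63 and Retn to 1.18, both uncalled. Further calls lost when rats 36 and 37 were both left out were Tnfaip2 (0.57), Sox17 (-0.57), Clca2 (-0.56), Junb (-0.57), Arc (-0.82), Tef (0.49), Cav3 (0.68), Sertad4 (0.57), Lrit1 (0.46), H19 (1.83), Hemgn (-1.11), Hbb-bs (-0.53), Hbe2 (-0.43) and Alas2 (-0.71). In that setting 102 features rose and 121 fell, 8 clock genes and 10 immediate early genes were called, and Tubb4b (0.93), Ccl12 (1.52), Steap1 (1.21), C6 (1.71), Rgs1 (-0.86) and Cyp4b1 (-0.61) were still called. The part of other tissue in the remaining differences was not tested.

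Inflammatory and immune genes gave few calls. No call fell in the lists of 28 chemokine, 29 interferon-stimulated, 10 MHC class II, 21 T cell, 27 macrophage or 16 neutrophil genes. An unadjusted limma p under 0.05 was reached by 1 gene of the chemokine list and 1 of the neutrophil list, and by 0 in the other 4 lists. Outside the lists, the chemokine genes Ccl12 and Ccl28 (0.80) rose. So did the cytokine genes Tnfsf15 (0.78) and Il20 (0.63) and the formyl peptide receptor gene Fpr2l1 (0.59). The last 4 were not followed through the other settings. Of 16 TNF, interleukin 1 and NF-kB genes, Tnfaip2, a TNF-induced gene, rose by 0.76, and Nfkbia, the inhibitor that holds NF-kB in the cytoplasm, fell by 0.65. Nfkbia differed between the sexes, at -1.35 in males and 0.06 in females (limma adjusted p = 0.00966), and was no longer called without control rat 1 (-0.47) or 2 (-0.52). Under the fixed slide block Tnfaip2 came to 0.51 and Nfkbia to -0.53, and neither was called. Tnf itself had 0.29 and Il1a -0.48, neither called, although the dimmer Il1a probe gave -0.68. Of 6 chitinase family genes, Chia and the related Chial1 (0.60) rose, the latter in 7 of the 12 fits that left out 1 rat and not with normexp (0.46).

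MHC class II genes had 9 of 10 differences negative at a median of -0.15, and mast cell genes 12 of 15 at -0.30, with 0 calls in either. Among 25 NK and cytotoxic genes, Ly49i5, a receptor of NK cells, was the single call at -1.46. Its controls ran from -6.76 to -3.20 and its high-dose rats from -7.04 to -5.65. Ly49i5 was dim, well above background on 5 control arrays but only 4 high-dose arrays. It came to -0.14 with slide as a fixed block and to -0.64 with normexp, and was called in neither. Of 18 erythroid genes 15 had a negative difference and 3 fell, against the 0.522% of all features. The 3 were Hbb-bs (-0.61), the embryonic globin Hbe2 (-0.67) and Alas2 (-0.81), which makes the first step of haem synthesis. The globin genes Hba-a1 (-0.07) and Hbb (-0.18) were not called. The 3 calls and that of the erythroid factor Hemgn (-1.22) depended on single rats. Alas2 was called in 2 of the 12 fits that left out 1 rat, Hemgn in 3, Hbe2 in 5 and Hbb-bs in 7. Under the fixed slide block Hbb-bs came to -0.47, Hbe2 to -0.72, Alas2 to -0.85 and Hemgn to 0.83, and with normexp Hbb-bs came to -0.53, Hbe2 to -0.66 and Alas2 to -0.78, none called.

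Genes that dispose of aldehydes gave no call. Hexanal is a substrate of aldehyde dehydrogenases and aldehyde reductases, and none of 16 dehydrogenases, 24 reductases and alcohol dehydrogenases or 23 glutathione S-transferases was called. Aldh2, the mitochondrial enzyme, had -0.10 and Aldh3a1, which oxidises medium-chain aldehydes, had -0.02. Among members with the smallest p, Aldh1a3 had -0.35, Dhrs3 -0.25 and Adh5 0.18. Single genes ranged more widely, from -0.35 to 0.93 over the dehydrogenases and from -0.30 to 1.02 over the transferases. The reductases and alcohol dehydrogenases ran from -1.16 to 0.26. Of 35 genes of the Nrf2 response none was called, with Nqo1 at 0.06, Hmox1 at -0.11 and Gclc at 0.10. Gclm, the regulatory subunit of glutathione synthesis, had 0.53, at 1.14 in males and -0.23 in females, and this difference between the sexes passed limma's test (adjusted p = 0.0193). Its levels were low, from -6.34 to -4.98, and control female 23 had no value, which left 5 controls. The difference over both sexes came to -0.04 with normexp and to -0.08 with slide as a fixed block. Heat shock and unfolded protein genes had 0 calls in 31 and 31. At an unadjusted limma p under 0.05 alone, 1 dehydrogenase, 1 higher and 2 lower reductases, 1 transferase, 1 gene of the Nrf2 response and 1 heat shock gene passed.

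Among epithelial lists, 16 of 18 type II cell and surfactant genes had a negative difference at a median of -0.12 and none was called, with Sftpc at 0.02, the phosphate carrier Slc34a2 at -0.29 and the surfactant lipid enzyme Lpcat1 at -0.31. Type I cell genes had a median of 0.01. The tight junction gene Cldn4, which lines injured alveoli, had 0.56 and Cldn1 had -0.48, neither called. Of 50 cell cycle genes 39 were negative at a median of -0.27 with 0 calls, of which the thymidylate synthase gene Tyms had the smallest p at -0.36. Of 70 subunits of oxidative phosphorylation 60 were positive at a median of 0.07 with 0 calls. An unadjusted limma p under 0.05 was reached by 3 type II cell genes and 8 cell cycle genes, all lower, and by 11 oxidative phosphorylation genes, all higher. Over all 21259 features, 649 were lower and 831 higher at that threshold.

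Of 32 endothelial genes, Sox17, an arterial transcription factor, fell by 0.71, by 0.21 in males and 1.21 in females. Of 34 ion transport genes, Slc9b2 rose and Clca2 fell by 0.68, with -0.58 and no call without high-dose rat 37 and -0.11 and no call with slide as a fixed block. Among 22 zinc transporters and metallothioneins, Slc39a5 rose by 0.66, with a call in 5 of the 12 fits that left out 1 rat and none with slide as a fixed block (0.51) or with normexp (0.40), while Slc39a14 (-0.54) and Slc39a8 (0.55) stayed under the 1.5-fold threshold. Matrix and TGF-beta genes (39), metalloproteinases and inhibitors (20) and smooth muscle genes (26) had 0 calls, with 7, 1 and 4 genes higher and 2, 1 and 0 lower at an unadjusted limma p under 0.05. In all, 47 lists were described, 31 of them without a call, and 41 of their 1240 distinct genes were called (3.31% against 1.22% of all features). The clock list gave 9 of these calls and the immediate early list 11. Because the lists were chosen with earlier results of these data known, the higher share is not a test of them.

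**Figure D4:**
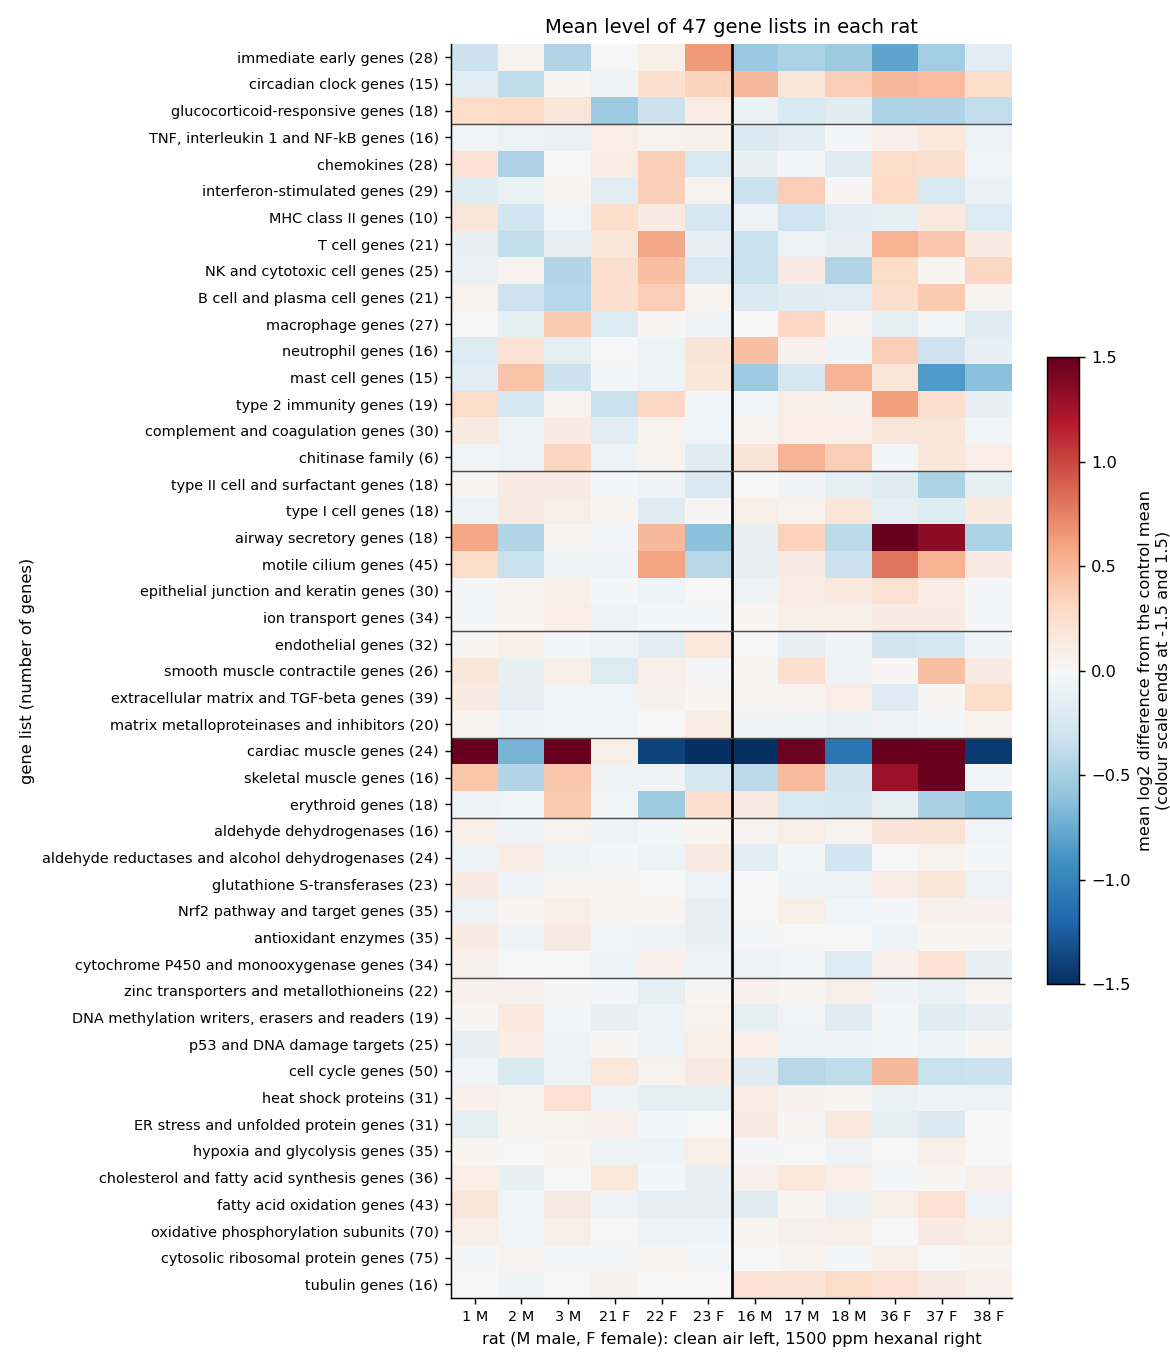
Mean log2 difference from the control mean over each of the 47 gene lists (rows, with the number of genes) in each of the 12 rats (columns), in colour on a scale that ends at -1.5 and 1.5. The tubulin list, Tubb4b included, ran from 0.07 to 0.28 in the high-dose rats, and the cardiac and airway secretory lists were highest in rats 36 and 37.

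The difference from control was not the same in the male and the female arrays, but each group of sex and dose lay on its own slide. Sex therefore cannot be told apart from slide here, and the test treats rats on the same slide as independent. For 1064 features (5%) limma's interaction test gave an adjusted p under 0.05. The female difference lay below the male one in 808 of these (3.8%) and above it in 256 (1.2%). In 795 (3.74%) the male difference was positive and the female one negative, and 243 (1.14%) had the reverse signs. Id3, an inhibitor of helix-loop-helix factors, ran from -0.46 to -0.05 in control males and from 0.57 to 0.62 in control females. In high-dose rats it ran from 0.54 to 0.67 in males and from -0.29 to 0.12 in females. The differences were therefore 0.83 and -0.65 (limma adjusted p = 0.000933), with the control males and the control females on opposite sides.

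Irx1, a homeobox gene of lung development, fell by 0.86 over both sexes, by 1.62 in males and 0.11 in females (limma adjusted p = 0.000522). Its control males ran from 4.21 to 4.31, its control females from 2.94 to 3.35, and the high-dose rats from 2.54 to 3.25. Cebpa, a factor of alveolar epithelium and myeloid cells, had -1.04 in males and 0.31 in females (limma adjusted p = 0.000502). Zfp608 had 0.91 and -0.32, Ust 0.86 and -0.17, and Pwwp2a 0.49 and -0.69. The number of such features was 166 with slide as a fixed block, 2738 with array weights, 337 with normexp, 298 without high-dose rats 36 and 37, 310 with slide as a random block and 632 without control rat 23.

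**Figure D5:**
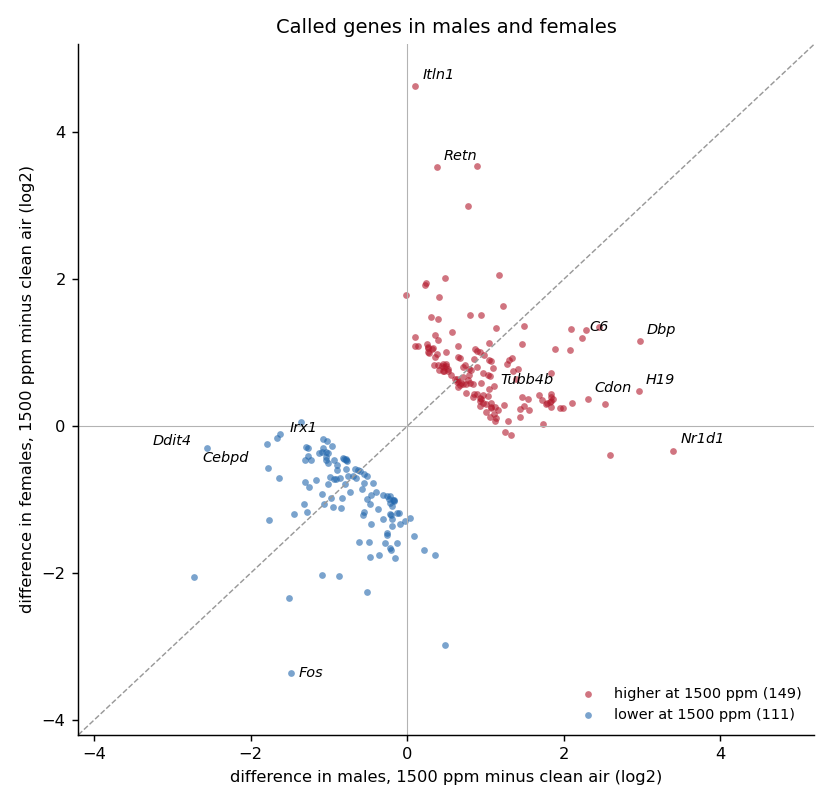
Log2 difference from control in males (horizontal axis) against that in females (vertical axis) for the 149 called higher and 111 called lower, with some genes named and a dashed line where both sexes are equal. Nr1d1 lay at 3.39 in males and -0.33 in females, and Tubb4b at 1.09 and 0.79.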

How the data were processed

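Single-colour Agilent arrays measured lung RNA of 12 rats, 6 per group, and the fit used all 24 arrays of the series. The authors deposited Feature Extraction 11.5.1.1 output, in which the processed signal is a background-subtracted fluorescence intensity per spot. The titles give hexanal in ppm, whereas the treatment text of the labels gives the same numbers in mg per cubic metre and 5 weeks of exposure. The authors' methods give ppm and a shorter exposure. The deposited value table held the processed intensities of the same arrays, and their log2 values without percentile scaling served as an alternative.

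Here log2 intensity minus each array's 75th percentile was taken, control spots and outliers were left out, probes needed the scanner's flag for signal clearly over background on 5 or more of 6 arrays of any group, and of several probes of a gene the brightest was kept. Changes were tested with limma 3.58.1 in R 4.3.3 (lmFit, eBayes), with calls at 1.5-fold and an unadjusted p under 0.05, and Benjamini-Hochberg over all features. Sex differences were an interaction contrast over 8 groups of dose and sex. Single genes were also given an exact two-sided permutation test. No count or depth exists for arrays.

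Named genes were the 12 largest rises and falls that moved alike in both sexes, the 6 smallest p-values, up to 5 called genes per list or otherwise its 2 smallest p-values, and 6 sex differences in each direction. Further genes (other called list members, genes whose groups separated, tissue markers and pathway genes) were chosen after their values were seen. The comparison, lists and rules were chosen with earlier results of these data known. Alternatives were normexp background correction, filters on dim probes, sex, slide, array weights, single sexes, the value table and leaving out rats. The method was tested on simulated data. Values there were drawn independently for each array without a slide effect, so the simulation cannot address the overlap of dose with slide.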

Additional observations from a re-analysis of the deposited data

Results flagged for a closer look

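Among 316 groups of 6 rats checked over the named genes, 15 (4.7%) held a rat that stood apart by Dixon's ratio, the gap to the nearest rat over the whole range, and chance gives about 1 in 20. Among high-dose rats these were rat 38 for Cebpd (highest, 0.736), Btg2 (highest, 0.757), Tubb5 (lowest, 0.677) and Tuba1b (lowest, 0.656), rat 18 for Ly49i5 (lowest, 0.632) and rat 36 for Wfdc2 (highest, 0.774). Among controls they were rat 3 for Retn (lowest, 0.647), Cul3 (highest, 0.837) and Ctss (highest, 0.63), rat 21 for Itln1 (lowest, 0.629) and the unnamed probe A_64_P101935 (lowest, 0.655), rat 22 for Hemgn (lowest, 0.625) and Sertad4 (highest, 0.656), rat 1 for Gadd45g (highest, 0.72) and rat 23 for Gprc5a (highest, 0.651).

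For 19 named genes the difference from control in females minus that in males passed limma's interaction test after adjustment. It was below 0 for Nr1d1 (-3.73), Id3 (-1.48), Gclm (-1.37), Zfp608 (-1.22), Pwwp2a (-1.18), Lcn10 (-1.12), Ust (-1.03), Prdm1 (-0.92) and Kiaa0408L (-0.81). It was above 0 for Cebpd (1.55), Irx1 (1.51), Nfkbia (1.41), Pdk4 (1.39), Cebpa (1.34), Ccdc8 (0.95), Thap4 (0.77), Zfp521 (0.76), Per1 (0.68) and Mtres1 (0.54). Sex and slide cannot be told apart in these arrays.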

How the results depend on the processing

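No paired analysis was possible because the rats carry numbers that no other group shares. Over the fits that left out 1 rat, features higher ran from 101 (without high-dose rat 36) to 244 (without control rat 23), features lower from 90 (without control rat 23) to 137 (without control rat 3), adjusted calls from 1 to 5 (without control rat 21), immediate early genes lower from 7 to 13, clock genes called from 9 to 9, glucocorticoid-responsive genes lower from 3 to 4 and sex differences from 632 (without control rat 23) to 1145 (without control rat 2). Normexp gave 25 higher and 69 lower, a share of higher calls of 26.6% against 57.3%, 2 adjusted and 337 sex differences. No filter gave 321 higher, and the filter on all arrays 99 higher and 73 lower. Sex as a covariate gave 12 adjusted. Slide as a fixed block gave 201 lower, 0 adjusted and 0 clock genes by limma, and 166 sex differences. As a random block it gave 75 higher, 65 lower and 310 sex differences. Array weights gave 14 adjusted, 2738 sex differences and a share of 41.2% higher, and the value table a share of 38.9%. Males alone gave 797 higher, 215 lower, 166 adjusted, 5 immediate early and 5 glucocorticoid-responsive genes. Females alone gave 385 higher, 707 lower, 33 adjusted, 4 clock and 0 glucocorticoid-responsive genes. Leaving out high-dose rats 36 and 38 left 457 sex differences and rats 36 and 37 left 298, both chosen after seeing the data. The cause of these shifts was not tested. Of 57 called named genes 33 kept the call in all 12 such fits and 5 in all other settings. With slide as a fixed block the direction turned for Dbp (-0.17), Retn (-0.17), Lipg (-0.28), Per2 (-0.51), Hemgn (0.83), Vom2r15 (0.24), Cfd (-0.18), Ciart (-0.22) and Cav3 (-0.44), in females alone for Nfkbia (0.06), Nr1d1 (-0.33) and Id3 (-0.65), and under normexp for the sex difference of Per1 (-0.37).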

Other observations

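The lists of lipid synthesis and of fatty acid oxidation held no called gene. Sqle and Hsd17b7, enzymes of cholesterol synthesis, had 0.38 and 0.31, and of 36 cholesterol and fatty acid synthesis genes 23 were positive at a median of 0.07 with 0 calls. Eci2, an enzyme of fatty acid oxidation, had -0.24, and 26 of 43 fatty acid oxidation genes were negative at a median of -0.03. Single genes of that list ran from -0.55 to 1.05. Of 19 DNA methylation genes 15 were negative, with Gadd45a at -0.35 and Gadd45g at -0.41, the latter below all controls in every high-dose rat. Gpx6 (0.31), the matrix proteoglycan gene Bgn (0.26) and the ATP synthase genes Atp5mc1 (0.19) and Atp5mg (0.15) lay above all controls in every high-dose rat without reaching 1.5-fold.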
